A study of Mus musculus with 4 samples.

Results

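The measurements concern 10 chemokine genes of mouse back skin: Ccl2, Ccl7, Ccl17, Ccl20 and Ccl22 of the CC family, Cx3cl1 of the CX3C family, and Cxcl1, Cxcl10, Cxcl12 and Cxcl14 of the CXC family. Members were chosen by name, as every gene probe whose gene name on the array was 1 of these 10. They are read by 13 of the 41174 gene probes on each array, on 22 spots, of 28034 genes in all. The study compared skin in which the protease ADAM17 was deleted in keratinocytes with control skin. The deleted group (cKO, for conditional knockout) was Adam17flox/flox and carried Krt14-Cre, a recombinase driven by the keratin 14 promoter of basal epidermal cells. The control group was Krt14-Cre negative littermates. The breeding gave every pup at least 1 floxed Adam17 allele, and the labels do not say whether control animals carried 1 or 2. Both groups were 10 days old, on a mix of 129Sv and C57BL/6, with 2 animals each. Control 1 and cKO 1 came from litter 1, and control 2 and cKO 2 from litter 2.

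Chemokines are small secreted proteins that bind G protein-coupled receptors on leukocytes and guide their movement into and within tissues. In skin they are made by keratinocytes, fibroblasts, endothelial cells and resident leukocytes, some at rest and others after cytokine signals that act through NF-kB or interferon pathways. Cx3cl1 (fractalkine) is made as a membrane-anchored protein, and ADAM17 and the related protease ADAM10 are known to release it from the cell surface. The arrays measured transcripts, so release of the protein was not measured. The comparison addresses which skin transcripts differ when keratinocytes lack ADAM17. Krt14-Cre was carried by the cKO animals only, so Cre and the loss of Adam17 cannot be told apart. In whole skin, fewer cells of a type and less RNA per cell cannot be told apart.

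Each biopsy was read on 1 Agilent 1-colour array, on which 53.7% to 56.6% of 43379 gene spots gave a signal well above background and none was saturated. Values below are the scanner's processed signals, or their log2 minus the array's own 75th percentile, called the log2 level. A difference is cKO minus control on that log2 scale, with its standard error (SE) and the adjusted p from limma over 15552 genes. Adam17 was at 69.0% of control by 1 probe and at 68.5% by the other, with a difference of -0.54 ± 0.09 (adjusted p = 0.114). The labels do not name the deleted exon, so these probes may lie outside it. All 8 of 8 skin genes looked up (Krt5, Krt14, Krt1, Krt10, Lor, Col1a1, Col3a1 and Pdgfra) had a probe well above background on all 4 arrays.

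Cx3cl1, Ccl7 and Cxcl12 each have 2 probes, which lie on different stretches of the transcripts. Cx3cl1 probe 2 was not well above background on any array, and whether the probes of a gene differed was not tested. The first 30 bases of these 60-base probes, 5′ to 3′, show what each one reads.
Cx3cl1 probe 1: tcccagagcagaatgtgggccgtaacaatc
Cx3cl1 probe 2: gtagacattcctagggacataggaaagatg
Ccl7 probe 1: ttctgagaactgttgatgaaatgtgttgat
Ccl7 probe 2: gcatggaagtctgcgctgaagcccatcaga
Cxcl12 probe 1: aggagaaggcagcttcctatatgcagcgtg
Cxcl12 probe 2: gaattaatcataaacggaagtttaaatgag
Per the array files (build mm9), the Cx3cl1 probes lie at chr8:97306185-97306244 and chr8:97296742-97296801, the Ccl7 probes at chr11:81860656-81860715 and chr11:81860504-81860563, and the Cxcl12 probes at chr6:117131227-117131286 and chr6:117124474-117124533. The files describe Cxcl12 probe 1 as a probe of transcript variant 3 and probe 2 as one of variant 1. No exon annotation of this build was used here.

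Promoter sequences are shown for 3 members, chosen after the values were seen. Ccl20 and Cx3cl1 had the smallest adjusted p among the members. Cxcl10 is a known target of both interferon and NF-kB, and its groups overlapped. The sequences run from 250 bases before to 50 bases after the transcript start, from RefSeq on GRCm38.p6, 5′ to 3′ on the gene's strand. Capitals mark matches to the NF-kB consensus and to the AP-1 motif TGANTCA, searched on both strands.
Ccl20 (chr1:83116516-83116815, plus strand): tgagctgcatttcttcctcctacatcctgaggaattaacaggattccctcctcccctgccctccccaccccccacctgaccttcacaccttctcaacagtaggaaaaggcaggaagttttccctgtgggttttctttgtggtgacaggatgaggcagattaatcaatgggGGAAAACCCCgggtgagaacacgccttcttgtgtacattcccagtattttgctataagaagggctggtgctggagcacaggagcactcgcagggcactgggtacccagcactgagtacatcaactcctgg
Cx3cl1 (chr8:94771930-94772229, plus strand): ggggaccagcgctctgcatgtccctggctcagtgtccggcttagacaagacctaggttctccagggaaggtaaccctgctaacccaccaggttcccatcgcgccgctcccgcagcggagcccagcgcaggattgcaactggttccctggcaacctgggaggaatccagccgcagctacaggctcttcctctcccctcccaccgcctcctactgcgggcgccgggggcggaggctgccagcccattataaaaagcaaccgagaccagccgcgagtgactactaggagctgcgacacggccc
Cxcl10 (chr5:92348840-92349139, minus strand): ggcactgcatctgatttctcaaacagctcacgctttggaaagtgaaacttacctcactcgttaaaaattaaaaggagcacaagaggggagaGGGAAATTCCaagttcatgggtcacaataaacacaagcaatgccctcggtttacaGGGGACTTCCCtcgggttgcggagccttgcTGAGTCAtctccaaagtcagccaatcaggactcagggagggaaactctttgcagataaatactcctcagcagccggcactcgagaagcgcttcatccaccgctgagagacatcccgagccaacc
The Ccl20 window holds 1 NF-kB stretch, beginning 80 bases before the start. The Cxcl10 window holds 2 NF-kB stretches, the nearer of them 2 overlapping matches, and 1 AP-1 match 74 bases before the start. The Cx3cl1 window holds neither motif. Of the 8 members with a promoter in the table (all but Ccl2 and Ccl7), Cxcl1 also has 1 NF-kB stretch, and Ccl17, Ccl22, Cxcl12 and Cxcl14 have neither motif. Among 32851 promoter windows of this length, 8.46% hold an NF-kB match and 7.81% an AP-1 match. A match describes the letters and does not show a bound site.

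In cKO skin, Cx3cl1, Ccl20, Ccl2 and Ccl17 measured higher than in control skin, by 1.72-fold to 2.00-fold for the first 3 of these, and Cxcl12 and Cxcl14 measured lower. In each of these 6 genes both cKO arrays lay on the same side of both control arrays. Such separation held for 49.4% of all genes tested (28% with cKO above and 21.4% with cKO below), so it is common here. None of the 8 measured members passed an adjusted p of 0.05 in limma, although 5 had an unadjusted p under 0.05. Of all 15552 genes, 0.341% passed (0.0707% higher and 0.27% lower), and 16.2% had an unadjusted p under 0.05. Of the 8, 5 were higher in both litters, 2 were lower in both and 1 differed in direction between the litters. Over all genes, 40.4% were higher in both litters and 32.1% lower in both. Ccl22 and Cxcl1 were not well above background on any array, so they have no difference. Ccl17, which is in the counts of separated genes, of unadjusted p and of genes higher in both litters, entered the test only through its cKO arrays. That way of entry favours higher cKO values, so its place in these counts is no support for a difference.

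**Figure D1:**
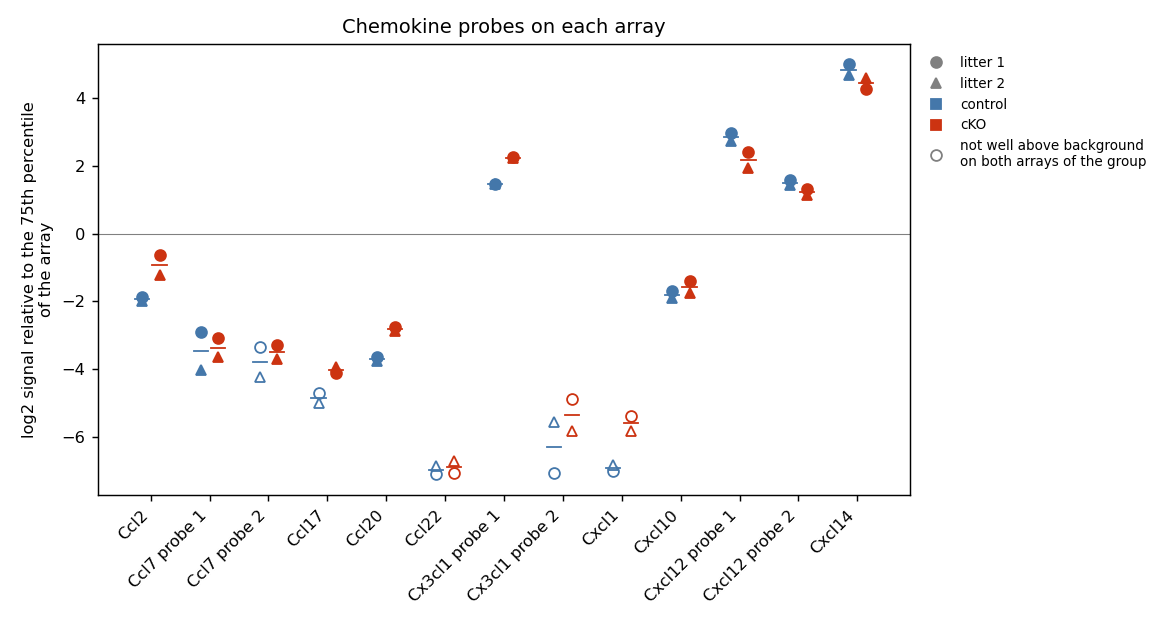
Log2 level relative to each array's 75th percentile (y axis) of each of the 13 probes on the 2 control and 2 cKO arrays. Circles are litter 1, triangles litter 2 and short bars group means, and open symbols mark groups in which the probe was not well above background on both arrays. The cKO points lie above both control points for Cx3cl1 probe 1, Ccl20, Ccl2 and Ccl17 and below both for both Cxcl12 probes and Cxcl14. They also lie above both for Cxcl1, which was not well above background on any array. Levels of different probes are not comparable.

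Cx3cl1 encodes fractalkine, the ligand of CX3CR1 on monocytes, macrophages and other leukocytes. Its probe 1 gave signals of 2070 and 2175 in control replicates 1 and 2, and of 3739 and 3634 in cKO replicates 1 and 2. Both cKO values thus lay well above both controls, which differed little from each other. The difference was 0.78 ± 0.08 (1.72-fold, 95% confidence interval of the log2 difference 0.56 to 1.01). It was 0.81 in litter 1 and 0.75 in litter 2, with an adjusted p of 0.0628. With a normexp background correction that left out 3 spots of 1 array, chosen after seeing the data, the difference was 0.73 with an adjusted p of 0.0418, which is past the threshold. Normexp with those spots kept, as planned (here planned normexp), gave Cx3cl1 a smaller difference of 0.53 ± 0.26 (adjusted p = 0.728). It called 0 genes in limma (425 with an unadjusted p under 0.05). For Ccl7, Cxcl10 and Cxcl14 it gave 0.81, 0.58 and -0.70, against the values given for these genes below. Cx3cl1 probe 2, on another stretch of the gene, had signals of 5.66 and 16.6 in controls and 26.4 and 13.7 in cKO. None of these was well above background, so this probe gives no second reading. Of the 2 proteases known to cut the protein, Adam17 was at the levels given above, and the Adam10 probe was well above background on 1 of 2 arrays in each group and was not tested.

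The genes whose 4 log2 levels followed Cx3cl1 most closely, after centring each gene, were Popdc3 (root mean square distance 0.020), Mt1 (0.024) and Cdh1 (0.043). Their differences in litters 1 and 2 were 0.77 and 0.74 for Popdc3, 0.86 and 0.71 for Mt1, and 0.81 and 0.66 for Cdh1. With 4 arrays, such likeness is only a description.

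Ccl20, the ligand of CCR6, is known from keratinocytes exposed to inflammatory cytokines and draws dendritic cells and CCR6-bearing lymphocytes. Its probe (chr1:83115500-83115559, mm9) had signals of 60.7 and 57.7 in controls and 114.9 and 105.6 in cKO. The signal was low but well above background on all 4 arrays, and the groups did not overlap. The difference was 0.88 ± 0.10 (1.84-fold, interval 0.60 to 1.16), with 0.88 in each litter and an adjusted p of 0.0724. Under the normexp correction without the 3 spots, which adds an offset of 50 to every signal, the difference was 0.41. The profiles nearest to Ccl20 were those of Mb (0.022), which encodes the muscle oxygen carrier myoglobin, Zfp267 (0.039) and H2bu2 (0.045).

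Ccl2, the main attractant of CCR2-bearing monocytes, is the only member read on 10 spots per array (chr11:81850650-81850709, mm9). Mean signals were 206.8 and 197.7 in controls and 498.4 and 335.6 in cKO. The 2 controls were close to each other, and cKO 1 was well above cKO 2. The difference was 1.002 ± 0.22 (2.00-fold), with 1.23 in litter 1 and 0.77 in litter 2, and an adjusted p of 0.165. Ccl2 was the 1 measured member at a 2-fold difference, which 1.77% of all genes reached.

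**Figure D2:**
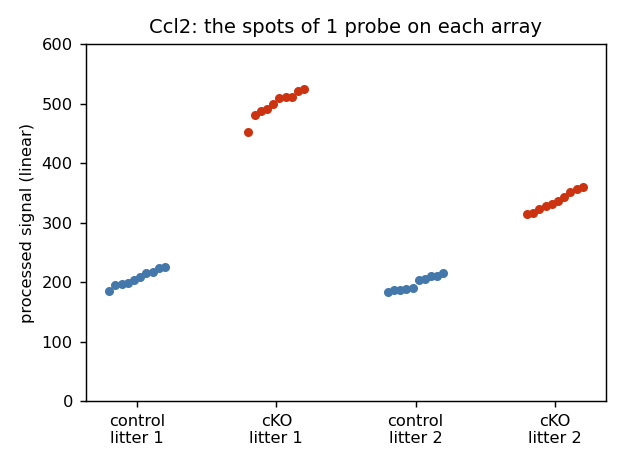
Processed signal of each of the 10 Ccl2 spots on each array (y axis, arbitrary units), sorted within the array. Spots ranged from 185.2 to 224.9 on control 1, 183 to 215.1 on control 2, 452.9 to 523.7 on cKO 1 and 315.2 to 360 on cKO 2, so the spots of the 2 cKO arrays do not overlap.

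The repeated spots show the spread of Ccl2 within an array, which is only a part of the technical error. Their SD on the log2 scale was 0.063 to 0.093 within an array, while the log2 levels of cKO 1 and cKO 2 were -0.63 and -1.21. The gap between the cKO arrays was thus larger than the spread between spots. Each animal had 1 array, so differences between arrays and between animals cannot be told apart. Spots of 1 array share an animal and are not replicates of the genotype.

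Ccl7, a second ligand of CCR2, lies beside Ccl2: the probes of both genes span 10066 bases of chromosome 11. Ccl7 probe 1 had signals of 100.9 and 48.6 in controls and 90.9 and 62.2 in cKO. The controls enclosed both cKO values. The difference was 0.088 ± 0.43 (adjusted p = 0.938), with -0.19 in litter 1 and 0.37 in litter 2. It turned to -0.47 without control replicate 2 and to -0.19 without cKO replicate 1. Ccl7 probe 2 differed by 0.29, with 0.042 and 0.54 in litters 1 and 2, and was well above background in 1 of 2 controls. Of the nearest tested genes beyond that stretch, Ccl11 (eotaxin) differed by -0.54 ± 0.38 and Ccl8 by 0.57 ± 0.81. On the other side, Tmem98 differed by -0.37 ± 0.15 and Myo1d by -0.40 ± 0.11, and none of these genes passed.

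Ccl17 and Ccl22 are the ligands of CCR4, a receptor of skin-homing T cells. The Ccl17 probe (chr8:97335770-97335829, mm9) had signals of 29.2 and 24.7 in controls and 44.9 and 50.5 in cKO. Neither control was well above background and both cKO arrays were. Against the probe's own signal on control 1 and the lowest signal that counted as well above background on control 2, cKO was at least 1.55-fold higher. The fitted difference was 0.81 ± 0.14 (0.58 in litter 1 and 1.04 in litter 2), with an adjusted p of 0.126. This value depended on the background treatment and was 0.26 under the normexp correction without the 3 spots. The Ccl22 probe (chr8:97274709-97274768, mm9) had signals between 5.46 and 7.43 on the 4 arrays, none well above background.

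Ccl22, Cx3cl1 and Ccl17 are neighbours, with probes spanning 61121 bases of chromosome 8. The genes flanking them differed by 0.050 ± 0.18 (Pllp), 0.13 ± 0.09 (Arl2bp), -0.055 ± 0.16 (Ciapin1) and 0.18 ± 0.08 (Coq9), none of which passed. Whether Cx3cl1 or Ccl17 differed from these neighbours was not tested.

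**Figure D3:**
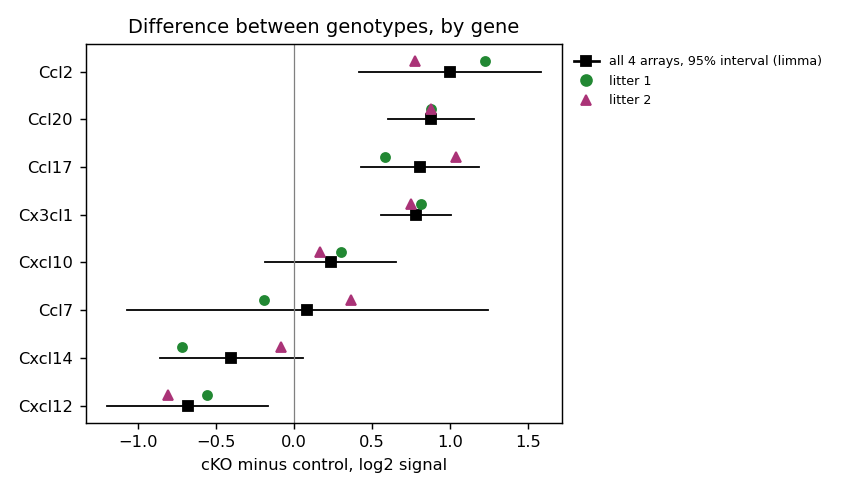
Differences of the members, cKO minus control on the log2 scale (x axis), with the fitted value over all 4 arrays (square), its 95% confidence interval (line), litter 1 (circle) and litter 2 (triangle). Cx3cl1 and Ccl20 have the narrowest intervals (0.56 to 1.01 and 0.60 to 1.16), and the Ccl7 litters lie on opposite sides of 0.

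Among the CXC members, Cxcl12 (SDF-1), the ligand of CXCR4, is made by fibroblasts and other stromal cells and holds leukocytes and stem cells in place. Cxcl12 probe 1 had signals of 5863 and 5255 in controls and 4092 and 2988 in cKO. Both cKO values were below both controls, and cKO 2 was the lowest. The difference was -0.68 ± 0.19 (-0.56 in litter 1 and -0.80 in litter 2), with an adjusted p of 0.229. Cxcl12 probe 2 had signals of 2240 and 2110 in controls and 1946 and 1701 in cKO. It was again lower in cKO in both litters, by a difference of -0.27 (-0.24 and -0.30). Without cKO replicate 2 the difference of probe 1 was -0.45. The difference was larger for probe 1 than for probe 2 in each litter, which was not tested.

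Cxcl14, known for its high constant expression in healthy skin, had signals of 23980 and 19990 in controls and 15020 and 18710 in cKO (chr13:56390078-56390137, mm9). All 4 signals were high, and the higher cKO value came close to the lower control. The difference was -0.40 ± 0.17 (adjusted p = 0.36), with -0.72 in litter 1 and -0.084 in litter 2. Most of it thus came from litter 1. Without control replicate 1 it was -0.24, and without cKO replicate 1 -0.25.

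Cxcl10, an interferon-induced ligand of CXCR3 on activated T cells, had signals of 230.8 and 209.4 in controls and 292.8 and 233.6 in cKO (chr5:92775781-92775840, mm9). The log2 levels were -1.70 and -1.90 in controls and -1.40 and -1.74 in cKO, so the groups overlapped. The difference was 0.24 ± 0.16 (adjusted p = 0.526), or 0.30 and 0.17 by litter. Without cKO replicate 1 it was 0.068. Cxcl1, which draws neutrophils through CXCR2, had signals of 5.83 and 6.94 in controls and 18.7 and 13.7 in cKO (chr5:91321845-91321904, mm9). None was well above background, so no fold is given.

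Receptors were taken from a list of 23 genes, of which 9 were measured and none passed the test. Their median difference was 0.14, against 0.025 over all genes, and it was 0.062 without cKO replicate 1, 0.31 without cKO replicate 2 and 0.47 under planned normexp. Cxcr4, the receptor of Cxcl12, had log2 levels of -2.10 and -1.95 in controls and -2.98 and -3.20 in cKO. The groups were clearly apart, with cKO at 47.8% of control. The difference was -1.07 ± 0.12 (adjusted p = 0.0689), with -0.88 in litter 1 and -1.25 in litter 2. A second Cxcr4 probe gave -1.17. Under the planned normexp correction the Cxcr4 difference turned to 0.018, and without the 3 spots of cKO replicate 2 that lay below their local background normexp gave -0.61. Ackr3, a scavenging receptor that also binds Cxcl12, differed by 0.37 ± 0.11 (adjusted p = 0.239), with 0.48 and 0.27 by litter. The Cxcl12 and Cxcr4 transcripts were thus both lower in cKO in each litter, while that of Ackr3 was higher in each.

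Ccr2, the receptor of Ccl2 and Ccl7, had log2 levels of -3.80 and -5.12 in controls and -2.94 and -2.98 in cKO. The control values were far apart, and only 1 of them was well above background. The difference was 1.50 ± 0.46 (adjusted p = 0.246), with 0.86 and 2.14 by litter, and it was 0.84 without control replicate 2 and 0.49 under normexp without the 3 spots. The second Ccr2 probe was not well above background on any of the 4 arrays. The decoy receptors Ackr1 and Ackr2, which take up Ccl2 among other chemokines, differed by 0.58 ± 0.11 (adjusted p = 0.144) and 0.48 ± 0.16 (adjusted p = 0.278). Without cKO replicate 1 the Ackr2 difference was 0.31. Ccr4, Ccr6 and Cx3cr1, the receptors of Ccl17, Ccl20 and Cx3cl1, were not well above background on any array. Cxcr2 and Cxcr3, the receptors of Cxcl1 and Cxcl10, reached that level on at most 1 array of a group. None of these receptors entered the test, so no difference is given for them.

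**Figure D4:**
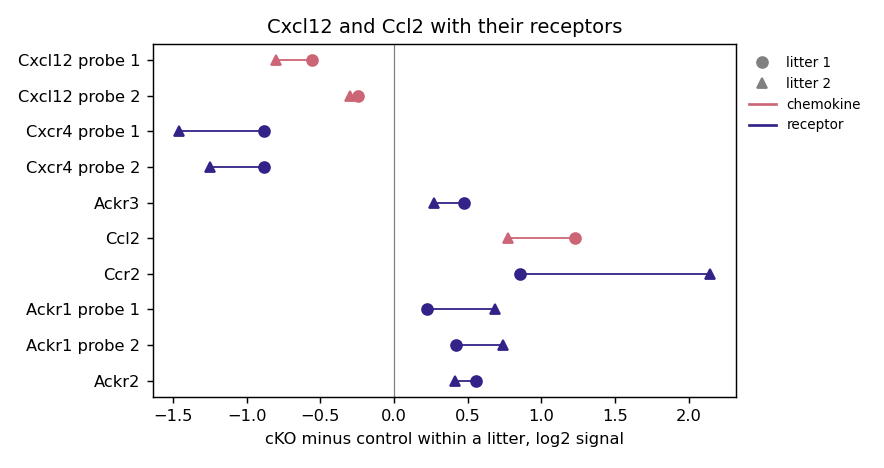
Differences in litter 1 and litter 2 (x axis, log2, cKO minus control) of the probes of Cxcl12 and Ccl2 and of their receptors, with a line joining the litters. Probe 2 of Cxcr4 and of Ackr1 is the one in the test. The Cxcl12 and Cxcr4 probes lie below 0 in both litters, and those of Ccl2, Ackr1, Ackr2, Ackr3 and the Ccr2 probe in the test above 0.

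The other chemokines were a list of 28 genes, with 13 measured and none past the test. In both litters 5 were higher and 7 lower (40.4% and 32.1% over all genes), and the median difference was -0.099. That sign was not stable: the median was 0.061 to 0.18 with any 1 array left out, 0.11 with probes well above background on all 4 arrays, 0.055 with the mean of a gene's probes and 0.24 under planned normexp. Ccl25, known for drawing lymphocytes to the gut, had log2 levels of 0.35 and 0.14 in controls and -0.37 and -0.54 in cKO (difference -0.70 ± 0.12, adjusted p = 0.128). With the mean of its probes in place of the brightest, the Ccl25 difference was -0.28 (adjusted p = 0.465). Ccl9 had levels of -1.18 and -1.54 in controls and -0.39 and -0.57 in cKO (difference 0.88 ± 0.16, adjusted p = 0.129). Ccl5 (RANTES) differed by 0.67 ± 0.14 (adjusted p = 0.158), and by 0.34 under normexp without the 3 spots. The chemokine family thus held differences in both directions.

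Of 20 cytokines known to induce chemokines, 8 were measured. None passed, and 7 were higher and 0 lower in both litters (40.4% and 32.1% over all genes). The median difference was 0.50 (0.33 under normexp without the 3 spots and 0.84 under planned normexp). Il36a (Il1f6 in the table used for names), an epidermal cytokine of the IL-1 family, had log2 levels of -4.60 and -4.36 in controls and -2.45 and -1.89 in cKO. The groups were far apart, with a difference of 2.31 ± 0.22 (adjusted p = 0.0534). Over its alternatives the adjusted p ran from 0.0366 (scaled to each array's median) to 0.728 (planned normexp, with a difference of 1.56). It passed also without cKO replicate 1 (0.0402) and under normexp without the 3 spots (0.0418), where the difference was smaller, at 1.21. Il36b, listed as Il1f8, differed by 1.20 ± 0.22 (adjusted p = 0.137), and Il33, an alarm cytokine of keratinocytes and other barrier cells, by 0.46 ± 0.09 (adjusted p = 0.158).

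Of 16 NF-kB response genes, 15 were measured and none passed. Their median difference was 0.28, with 10 higher and 3 lower in both litters (40.4% and 32.1% over all genes). Nfkbia, the inhibitor that NF-kB itself induces, had log2 levels of 3.77 and 3.68 in controls and 4.45 and 4.15 in cKO (difference 0.57 ± 0.13, adjusted p = 0.187). The Nfkbia difference was 0.29 under planned normexp. Nfkbie, of the same inhibitor family, differed by 0.40 ± 0.09 (adjusted p = 0.189), and by 0.26 under normexp without the 3 spots. Tnfaip3 (A20), which also restrains NF-kB signalling but is not of that family, differed by -0.35 ± 0.10 (adjusted p = 0.229). The list thus held both directions.

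Of 19 interferon response genes, 15 were measured and none passed, with a median difference of 0.14. The medians of the litters had opposite signs, -0.23 in litter 1 and 0.41 in litter 2, and the median turned to -0.23 without cKO replicate 2. Rsad2 differed by -0.24 ± 0.08 (adjusted p = 0.279), Irf7 by -0.34 ± 0.15 (adjusted p = 0.374) and Ifit3 by 0.39 ± 0.21 (adjusted p = 0.452). Cxcl10, the interferon target among the members, was higher in both litters, by the values given above.

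**Figure D5:**
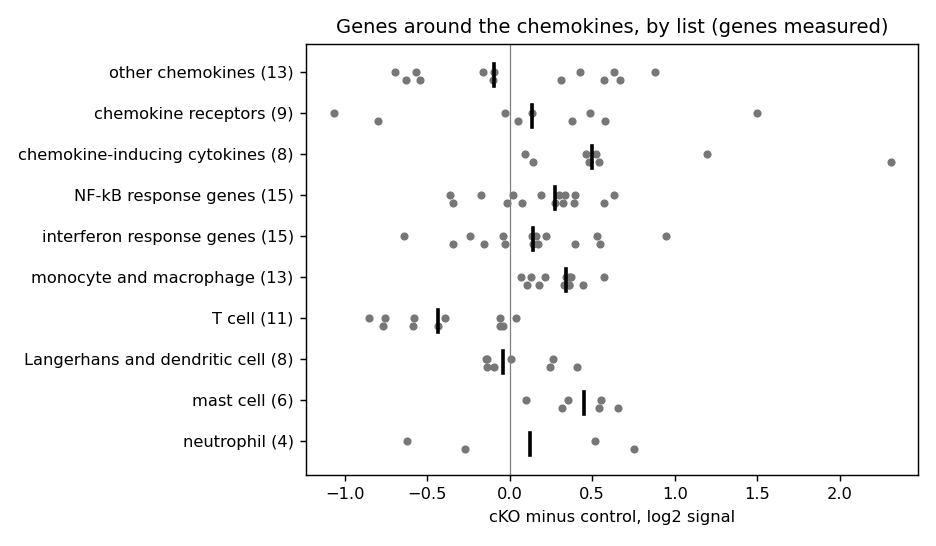
Difference of each measured gene (points; x axis, log2, cKO minus control) by list, with the list's median as a black bar and its number of genes in brackets. The monocyte and macrophage and the mast cell genes all lie above 0, most T cell genes below it, and the cytokine gene farthest to the right is Il36a at 2.31.

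Markers of leukocytes that could carry or answer these transcripts were read beside them, and their part in the chemokine values was not tested. No marker of these lists passed the test. For the counts by litter below, the shares over all genes were 40.4% higher and 32.1% lower in both litters. Of 14 monocyte and macrophage markers, 13 were measured, 11 were higher and 0 lower in both litters, and the median difference was 0.34, which was 0.077 without control replicate 2 and 0.20 without cKO replicate 1. The summed linear level of that list, in units of the array's 75th percentile, was 35.6 to 44.3 in controls and 51.0 to 53.7 in cKO. Cd14 and Lyz2 differed by 0.33 ± 0.14 and 0.57 ± 0.24 (adjusted p = 0.357 and 0.358), and Itgam did not reach the filter on dim signals. Of 14 T cell markers, 11 were measured, 0 were higher and 7 lower in both litters, and the median was -0.44, which was -0.15 under normexp without the 3 spots and turned to 0.12 under planned normexp. Their summed level overlapped, at 15.8 to 20.3 in controls and 15.2 to 20.6 in cKO. Most of that sum is Thy1, the brightest of these markers. Its log2 levels were 4.11 and 3.66 in controls and 4.19 and 3.66 in cKO, so the overlap does not describe the dimmer markers. Cd3g differed by -0.76 ± 0.13 (adjusted p = 0.123), Itgae by -0.59 ± 0.10 (adjusted p = 0.123) and Cd247 by -0.86 ± 0.15 (adjusted p = 0.129). These encode chains of the T cell receptor complex and the integrin of skin T cells, and Cd8a and Cd28 did not reach the filter. For the 8 of 11 Langerhans and dendritic cell markers measured the median was -0.044 (-0.17 to 0.22 with 1 array left out), with summed levels of 26.3 to 32.4 in controls and 27.4 to 29.3 in cKO. Cd1d1, Epcam and Itgax differed by 0.41, -0.14 and 0.24 (adjusted p = 0.392, 0.501 and 0.590). For the 6 of 10 mast cell markers it was 0.45, but -0.056 without cKO replicate 1, 0.085 without control replicate 2, 0.76 without control replicate 1 and 0.84 without cKO replicate 2. Their summed level was 9.65 to 15.1 in controls and 11.7 to 20.4 in cKO. Kit, Hdc and Tpsb2 differed by 0.35, 0.66 and 0.55 (adjusted p = 0.296, 0.378 and 0.668). For the 4 of 11 neutrophil markers the median was 0.12, but -0.17 without control replicate 2, -0.27 with probes well above background on all 4 arrays and -0.053 under normexp without the 3 spots. Their summed level was 3.24 to 3.62 in controls and 2.28 to 2.95 in cKO. Most of that sum is S100a8 and S100a9, the brightest of these markers, so it does not describe the dimmer ones, which were higher in cKO. Camp, S100a9 and S100a8 differed by 0.75, -0.62 and -0.27 (adjusted p = 0.309, 0.385 and 0.403), and the defining neutrophil genes Mpo, Elane and Csf3r did not reach the filter.

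Structural cells of the biopsy were read in the same way. Median differences were 0.19 for 11 basal keratinocyte markers, 0.014 for 11 fibroblast markers and -0.072 for 11 endothelial markers. They were 0.56 for 10 fat cell markers, 0.40 for 11 skeletal muscle markers and -0.48 for 5 of 9 red cell markers. With 1 array left out, the fibroblast median ran from -0.29 to 0.22 and the endothelial median from -0.18 to 0.077. The red cell median was -0.18 without control replicate 1 and -0.78 without control replicate 2, and without the latter the fat cell median was 0.37 and the muscle median 0.21. Under planned normexp the basal keratinocyte median turned to -0.078. No marker passed the test in any of these lists. The summed fat cell level was 288.9 to 385.2 in controls and 411.6 to 454.1 in cKO, and that of muscle 527.0 to 684.6 and 760.6 to 779.9. The summed fibroblast level, from cells that make Cxcl12, was 571.4 to 838.8 in controls and 478.5 to 764.6 in cKO. The groups were thus apart for fat and muscle and overlapped for fibroblasts.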

How the data were processed

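Gene expression was measured in 4 back skin biopsies on 1-colour Agilent arrays (design 014868, probe positions in mm9 per the file headers), labelled with Cy3 per the labels' protocols. The submitters' processing notes name Feature Extraction 10.5 and the file headers 10.7.3.1. The authors' scanner files, as deposited, give a processed intensity per spot, already background-subtracted, on which all values rest. The authors' deposited series table holds log2 values and served as an alternative. Control spots and outlier spots (51 to 66 per array) were left out, and log2 signals minus each array's 75th percentile were averaged over the spots of a probe.

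Probes well above background on every array of the control or of the cKO group were kept (22190 probes), and a gene took its probe with the highest mean (15552 genes). The genotypes were then set against each other in limma 3.58.1 (R 4.3.3, two-sided, without covariates, Benjamini-Hochberg adjustment, threshold 0.05, 2 residual degrees of freedom plus 2.37 from the prior). The labels give the litter as the pairing, and deviations from the group means correlated across genes at 0.35 between littermates, so litter as a block was an alternative. A lower limit of a fold sets the brighter group's mean against, on each array of the other group, the probe's signal or the lowest well above background on that array, whichever was higher. Probe names were updated through RefSeq (26690 by accession, 5189 by symbol, 952 by synonym), and 8343 kept the name in the files.

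Members and lists were chosen with earlier results of these data known. Named were all members, their receptors, the 3 genes with the smallest p of each immune or pathway list (not of the structural lists) and the 3 profiles nearest to each of the 2 members with the smallest p. A result for 1 further gene under this rule is not reported here. The motifs, the promoters shown and the genes beside the clusters were chosen after their values were seen. Normexp correction, other scalings, filters and probe rules, and leaving out each array, were alternatives.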

Additional observations from a re-analysis of the deposited data

Results flagged for a closer look

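Ccl7 differed in opposite directions in the 2 litters, by -0.19 in litter 1 and by 0.37 in litter 2 (log2, cKO minus control, probe 1). With 1 animal per genotype and litter, the difference between the litters was not tested.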

How the results depend on the processing

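Against 11 genes higher and 42 lower in cKO, limma called 30 and 77 with arrays scaled to the median, 23 higher with quantile normalization, 5 and 23 with probes well above background on all 4 arrays, and 6 higher with every probe as a row. With normexp without 3 cKO replicate 2 spots below local background, chosen after seeing the data, it called 35 and 99. It called 0 and 0 with planned normexp (425 genes with an unadjusted p under 0.05), with no filter (2079) and with litter as a replicate block (3706, lowest adjusted p = 0.0567). Leaving out 1 array gave 0 to 9 higher and 0 to 29 lower: 0 without control replicate 1 (1842) or control replicate 2 (1750), 9 and 29 without cKO replicate 1, and 2 and 22 without cKO replicate 2. No member passed under the block.

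Of the member values under alternatives, 116 kept direction and side of the threshold, 2 turned sign and 1 passed. Cx3cl1 passed at 0.73 (adjusted p = 0.0418) under normexp without the 3 spots, and planned normexp gave it 0.53 (adjusted p = 0.728). Ccl7 ranged from -0.47 to 0.65 when 1 array was left out. Planned normexp turned the signs of Cxcr4 (0.018), Cd3g (0.099), Itgae (0.12), Cd247 (0.38), Rsad2 (0.21) and Irf7 (0.075). With 1 array left out, Tpsb2 ranged from -0.079 to 1.19 and Itgax from -0.011 to 0.50. The number of arrays limits precision, and Ccl17, not well above background in controls, has only a lower limit of its fold.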
